A study of Mus musculus with 2 samples.

Results

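Kinesins are motor proteins that use the energy of ATP to move along microtubules or to take their ends apart. In dividing cells mitotic kinesins build the spindle, move chromosomes and complete cytokinesis, and in neurons other kinesins carry vesicles, mitochondria and protein complexes outward along axons. The forebrain at embryonic day 14.5 holds both kinds of cell, since progenitors divide beside the ventricle while newborn neurons extend axons. The kinesin genes were taken as the protein-coding genes whose symbol starts with Kif and a digit or with Kifc. The rule gave 43 of the 21474 protein-coding genes matched by identifier, of which 42 encode motors. Kif1bp, which encodes a kinesin-binding protein with no motor, met the rule by its symbol.

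The motors were placed in classes by their known roles. There were 14 mitotic kinesins, 10 kinesins of axonal transport and 2 of dendritic transport. A further 5 serve other membrane transport, 6 cilia or hedgehog signalling and 4 other roles. Kif2a, which works both at spindle poles and in neurons, was kept apart. The classes rest on published roles of the proteins, but they were drawn up with earlier results of these data known.

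The data came from total RNA of 2 forebrains, which formed 1 group called E14.5 forebrain here. Each sample was the forebrain of a single embryo of mouse strain B6NCrl at 14.5 days, with no treatment, transgene or mutation named, and the samples were collected on different days. Both labels carry the same donor identifier and record the sex as pooled, so the relation between the embryos is not settled by the labels. The input to a library was 10 ng of RNA over 200 nt in length. The expected counts, which are estimated read numbers, summed to 35310017 in replicate 1 and 29250404 in replicate 2. The libraries differed by more than sampling noise, with a chi-square of 28.3 per degree of freedom over 18006 genes. Levels are given in TPM, a share of all transcripts that takes transcript length into account, so levels of different genes can be set side by side. With 1 group no test between conditions was possible, and errors are standard deviations over the 2 libraries (n = 2), which may hold technical as well as biological spread. Beside each TPM the authors deposited an interval whose level is not stated, and values are called apart where these intervals did not overlap. All 11 neuron markers, all 7 radial glia markers and all 9 proliferation markers reached a TPM of 1 in both libraries, as did 12808 of 21474 protein-coding genes. These lists mark cell types and not the forebrain, so the tissue label was not tested by them.

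Many genes of mitosis carry in their promoters a cell cycle homology region, a short element bound by repressor and activator complexes of the cell cycle, often downstream of CCAAT boxes. Stretches of kinesin promoters from RefSeq (build GRCm38.p6) are shown to set mitotic and axonal genes side by side. The letters of that region lay near the start in 9 of 13 mitotic windows and 0 of 9 axonal windows. Near means from 30 bases before to 50 after it, a span set after the positions were seen. All mitotic stretches shown come from windows with such a match. Kif1a, which held the letters 44 bases before the start in 1 of its 2 windows, is not shown. Each stretch runs 5′ to 3′ on the gene's strand, from 90 bases before to 30 bases after the annotated start. Capitals mark the letters of the cell cycle homology region (TTTGAA, or TTCAAA on the other strand) and of the CCAAT box (CCAAT, or ATTGG on the other strand). The mitotic stretches are Kif11 from chr19:37376292-37376411 (plus strand), Kif22 from chr7:127042391-127042510 (minus strand), Kif23 from chr9:61946770-61946889 (minus strand), Kif20b from chr19:34922268-34922387 (plus strand) and Kif4 from chrX:100625975-100626094 (plus strand).
Kif11: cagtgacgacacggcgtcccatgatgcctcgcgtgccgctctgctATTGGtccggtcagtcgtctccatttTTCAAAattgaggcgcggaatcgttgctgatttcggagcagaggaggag
Kif22: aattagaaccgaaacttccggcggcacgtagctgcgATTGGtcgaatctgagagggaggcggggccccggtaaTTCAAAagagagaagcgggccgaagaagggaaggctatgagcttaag
Kif23: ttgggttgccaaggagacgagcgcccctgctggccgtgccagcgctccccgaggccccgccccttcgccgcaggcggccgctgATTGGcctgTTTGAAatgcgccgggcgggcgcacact
Kif20b: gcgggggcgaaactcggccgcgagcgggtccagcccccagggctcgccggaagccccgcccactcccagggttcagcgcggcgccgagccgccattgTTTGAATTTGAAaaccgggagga
Kif4: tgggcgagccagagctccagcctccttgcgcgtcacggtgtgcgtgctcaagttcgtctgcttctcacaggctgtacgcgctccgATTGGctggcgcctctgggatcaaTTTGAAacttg
The axonal stretches are Kif5c from chr2:49619196-49619315 (plus strand), Kif3c from chr12:3365042-3365161 (plus strand) and Kif3a from chr11:53567279-53567398 (plus strand).
Kif5c: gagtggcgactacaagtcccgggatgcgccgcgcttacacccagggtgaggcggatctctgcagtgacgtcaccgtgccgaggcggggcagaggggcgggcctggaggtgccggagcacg
Kif3c: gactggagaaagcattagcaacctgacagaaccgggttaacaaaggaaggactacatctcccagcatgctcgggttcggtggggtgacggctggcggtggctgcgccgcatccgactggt
Kif3a: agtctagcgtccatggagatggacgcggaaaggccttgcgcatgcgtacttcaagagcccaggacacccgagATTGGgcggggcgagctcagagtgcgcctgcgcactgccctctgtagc

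Over whole windows of 250 bases before to 50 after the start, 11 of 13 mitotic windows (84.6%) held the letters of the cell cycle homology region. Of the 9 axonal windows, which covered 7 genes, 1 held them, and so did 2 of 15 windows of the remaining kinesin genes. Over all protein-coding genes the letters were in 3400 of 21263 windows (16.0%). The CCAAT letters were in 9 of 13 mitotic windows, 4 of 9 axonal windows and 38.2% of all windows. Both motifs occurred together in 8 of 13 mitotic windows, 0 of 9 axonal windows and 6.38% of all windows.

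The position of the match also differed between members. In Kif11 and Kif15 it began 19 bases before the start and in Kif22 17 bases before it. In Kifc1, Kif23, Kif18b, Kif4 and Kifc5b it began 2, 3, 4, 20 and 30 bases after the start, in that order. Kif20b held a pair of abutting matches, which began 8 and 14 bases after the start. Within 30 bases before and 50 after the start, a stretch chosen after the positions were seen, 9 of 13 mitotic windows held the letters, against 0 of 9 axonal windows and 2.99% of all windows. The matches of Kif2c and Kif14 lay farther upstream, 103 and 228 bases before the start, and the windows of Kif18a and Kif2b held none. The axonal match was in 1 of the 2 windows of Kif1a, 44 bases before that start. No window was matched for Kif20a, Kif5a, Kif5b, Kif21b, Kif13b, Kif19a, Kifc2, Kifc3, Kif28 and Kif1bp. A match of letters is a description of the sequence, and binding was not measured.

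**Figure D1:**
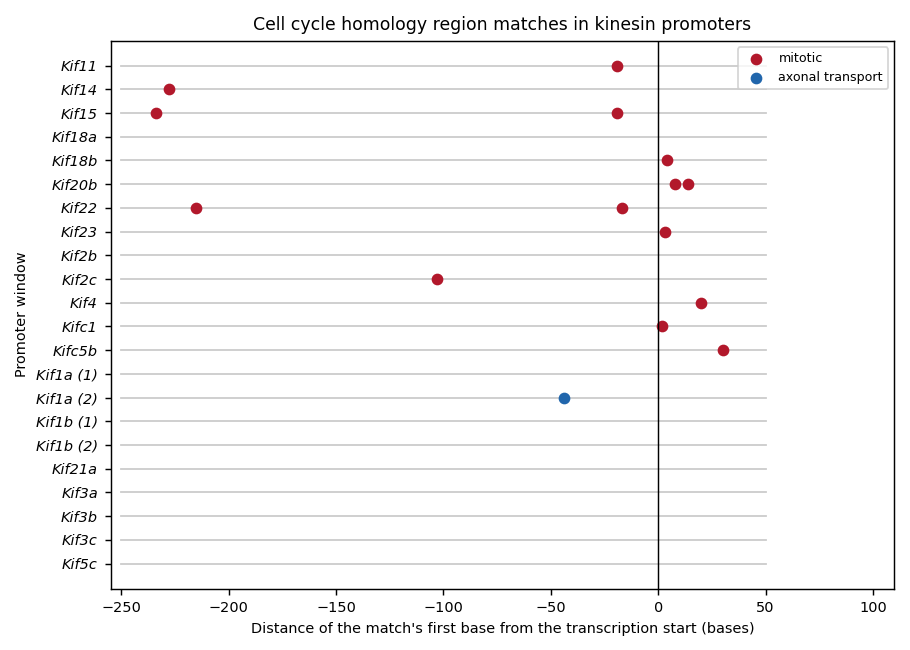
Positions of the cell cycle homology region letters (TTTGAA or TTCAAA) in promoter windows of mitotic and axonal kinesin genes, in bases from the annotated start (x axis, 0 at the start). Each grey line is 1 RefSeq window and each point the first base of 1 match; points lie in 11 of 13 mitotic windows, mostly close to the start, and in 1 of 9 axonal windows.

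The axonal transport kinesins were the most abundant class of the family by summed level. All 10 reached a TPM of 5 in both libraries. Kif1a, which carries precursors of synaptic vesicles (ENSMUSG00000014602.11, chr1:93015464-93101951, minus strand), stood at 144.35 TPM in replicate 1 and 203.29 TPM in replicate 2, or 174 ± 41.7. Kif3a, a motor subunit of heterotrimeric kinesin in axons and cilia (chr11:53567379-53601967, plus strand), stood at 165.33 and 166.86 TPM, or 166 ± 1.08. These genes had the highest TPM of the family over all models and changed places between the libraries, so their order is within the spread. Over models of at least 1000 nt neither led, as described with the transcripts. Among protein-coding genes ranked by mean TPM, Kif1a was at place 883 and Kif3a at place 924.

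The Kif5 genes encode the heavy chains of conventional kinesin, the main motor of fast transport away from the cell body. Kif5c (chr2:49619298-49774778, plus strand) had 123.25 and 144.53 TPM, and it drew the most reads of any kinesin gene, with 18978 and 17150 expected counts. Kif5b, which most cell types express, had 99.79 and 115.57 TPM. Kif5a, the most neuron-restricted of the heavy chains, had 38.40 and 56.50 TPM. Over all models the order Kif5c, Kif5b, Kif5a held in both libraries with intervals apart. With the full-length model of Kif5b alone it held in replicate 1 only, as described with the transcripts. On the log2 scale Kif5c exceeded Kif5a by 1.52 ± 0.23 and Kif5b exceeded Kif5a by 1.21 ± 0.24, whereas Kif5b lay under Kif5c by a smaller step, at -0.31 ± 0.01.

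Kif1b, whose isoforms carry mitochondria or synaptic vesicle precursors, had 78.64 and 107.53 TPM. Kif3b, the usual motor partner of Kif3a, had 11.80 and 13.42 TPM, the lowest axonal level. The log2 ratio of Kif3b to Kif3a was -3.72 ± 0.12 over all models and -2.86 over models of at least 1000 nt, so the genes of this heterodimer were unequal by either measure. Kif3c, the alternative partner of Kif3a in neurons, had 34.52 and 52.14 TPM and thus stood above Kif3b in both libraries. Kifap3, the accessory subunit that joins the Kif3 motors, had 86.29 and 102.62 TPM.

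Kif21a and Kif21b limit microtubule growth and travel along neuronal microtubules. Kif21b had 42.21 and 52.15 TPM and Kif21a 39.47 and 43.95 TPM. With Kif5a and Kif3c they formed a close set of 4 genes, with means from 41.7 ± 3.17 TPM for Kif21a to 47.5 ± 12.8 TPM for Kif5a. Kif21a lay below Kif21b with intervals apart in both libraries, while the places of Kif5a and Kif3c changed between the libraries.

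**Figure D2:**
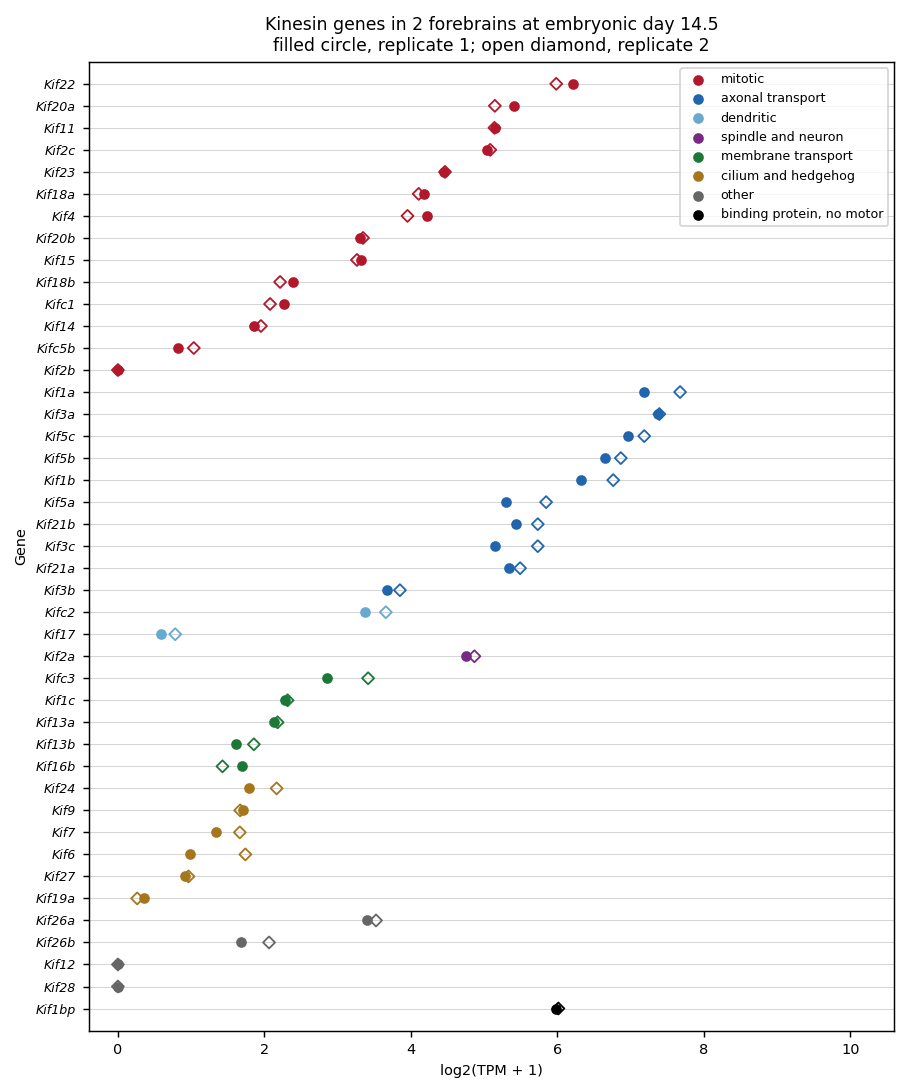
Level of each of the 43 kinesin genes as log2(TPM + 1) on the x axis, grouped by class (colour) and sorted within a class, for replicate 1 (filled circle) and replicate 2 (open diamond). Axonal genes run from Kif1a at 174 TPM to Kif3b at 12.6 TPM and mitotic genes from Kif22 at 67.7 TPM to Kif2b with no read, so the classes overlap.

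Of the 14 mitotic kinesins, 12 reached a TPM of 1 in both libraries. Kif22, a chromokinesin that binds chromosome arms (chr7:127027729-127042471, minus strand), led the class with 73.18 and 62.28 TPM, or 67.7 ± 7.71. Kif20a, which brings the chromosomal passenger complex to the central spindle, had 41.24 and 34.40 TPM. Kif11, the bipolar motor that pushes spindle poles apart (chr19:37376403-37421859, plus strand), had 34.46 and 34.27 TPM, or 34.4 ± 0.134. Kif22 exceeded all other mitotic members in both libraries, while Kif20a and Kif11 had nearly the same level in replicate 2.

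Kif2c, which takes apart microtubule ends at kinetochores, had 31.93 and 32.89 TPM. Kif23, the motor of the centralspindlin complex that organises the midzone, had 20.90 and 21.09 TPM. Kif18a, which dampens chromosome movements at the spindle equator, had 17.04 and 16.22 TPM. Kif4, a chromokinesin that also sets the length of midzone microtubules, had 17.68 and 14.49 TPM. Over all models Kif18a and Kif4 changed places between the libraries, and Kif2c and Kif23 kept theirs. Over protein-coding models Kif18a, at 16.31 and 15.08 TPM, stood above Kif4, at 15.04 and 13.17 TPM, in both libraries.

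Kif20b, which acts late in cytokinesis, had 8.85 and 9.17 TPM. Kif15, which supports Kif11 in keeping spindles bipolar, had 8.93 and 8.60 TPM. These levels were within the spread of each other. Kif11 exceeded Kif15 by 1.97 ± 0.03 on the log2 scale, a ratio of 3.92 that was nearly the same in both embryos. Kif20b stood below its relative Kif20a, with a log2 ratio of -2.06 ± 0.22, and Kif23 stood below Kif20a as well, at -0.84 ± 0.19.

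The remaining mitotic members were low. Kif18b, which acts on astral microtubules, had 4.26 and 3.64 TPM, and Kif18a exceeded it by 2.08 ± 0.11 on the log2 scale. Kifc1, a minus-end-directed motor that focuses spindle poles, had 3.81 and 3.22 TPM. Kif14, which works at the midbody, had 2.63 and 2.87 TPM, and Kif4 exceeded it by 2.54 ± 0.29 on the log2 scale. Kifc5b, a near copy of Kifc1, had 0.77 and 1.05 TPM. Of the 31-base words of the Kifc1 transcript 58.7% also occur in that of Kifc5b, so the split of reads between them is uncertain. Kif2b, a relative of Kif2c, had no read in either library, which allows up to 0.0611 TPM in replicate 1 and 0.0794 TPM in replicate 2 at 3 counts.

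Set against each other, the axonal class held more transcripts than the mitotic class in both embryos. The 14 mitotic genes together stood at 265.68 TPM in replicate 1 and 244.19 in replicate 2, or 255 ± 15.2 TPM. The summed level of the 10 axonal genes was 777.76 and 955.94 TPM, or 867 ± 126. The axonal sum was 3.39 times the mitotic sum on average, and the log2 ratio of mitotic to axonal was -1.55 and -1.97, or -1.76 ± 0.30. This gap is larger than the spread between the libraries. Of all kinesin TPM the mitotic genes took 22.5% and 18.1% and the axonal genes 65.9% and 70.8%.

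The typical member differed in the same direction as the sums. The median mitotic level was 12.985 TPM in replicate 1 and 11.83 in replicate 2, the median axonal level 60.425 and 82.015 TPM, and the median over all protein-coding genes 3.87 and 4.59 TPM. The difference of the median log2(TPM + 1), mitotic minus axonal, was -2.39 ± 0.37. Both classes therefore stood above the median gene. The size of the difference depends on which genes each class holds. Over members with a mean TPM of 1 or more it was -1.98. No alternative moved motors of other classes into the axonal class. The classes overlapped, because Kif22 had a higher mean than Kif5a, Kif21b, Kif3c, Kif21a and Kif3b. Spindle motor Kif11 stood below Kif5c, with a log2 ratio of -1.96 ± 0.17, and Kif23 below Kif5a, at -1.15 ± 0.38. Among the axonal genes, the 6 that are enriched in neurons (Kif1a, Kif3c, Kif5a, Kif5c, Kif21a and Kif21b) summed to 422.2 and 552.56 TPM. The 4 that many tissues express (Kif1b, Kif3a, Kif3b and Kif5b) summed to 355.56 and 403.38 TPM. With the neuron-enriched genes alone as the axonal class, the log2 ratio of the sums was -0.92, so the gap was smaller in the same direction. In whole tissue, fewer cells of a type and less RNA per cell cannot be told apart.

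As shares of all counts, which are not divided by length, kinesin genes took 0.321% of the reads in replicate 1 (95% Wilson interval 0.319% to 0.323%) and 0.353% in replicate 2 (0.351% to 0.355%). Mitotic genes took 0.0560% and 0.0486%, and axonal genes 0.232% and 0.271%. The intervals of the libraries lay apart for both classes and cover counting error only.

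The summed level of each remaining class was lower than that of the mitotic or the axonal class. Kif2a, which takes apart microtubule ends at spindle poles and limits axon branching, had 26.05 and 28.17 TPM. Its log2 ratio to Kif2c was -0.26 ± 0.05, with intervals that overlapped in replicate 2, the sole pair of the 20 not apart in both libraries, and in expected counts the ratio was 0.50. Kif1bp, which binds kinesins that include Kif1b, had 62.21 and 63.56 TPM.

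Kifc2, a motor of dendritic transport, had 9.36 and 11.62 TPM, while Kif17, which carries glutamate receptor subunits into dendrites, had 0.51 and 0.72 TPM. The log2 ratio of the mitotic Kifc1 to Kifc2 was -1.57 ± 0.39. Kif26a, a kinesin without ATPase activity that acts in neuronal signalling, had 9.54 and 10.50 TPM, and its relative Kif26b had 2.20 and 3.18 TPM. All 5 motors of membrane transport reached 1 TPM in both libraries, from Kifc3 at 6.25 and 9.67 TPM down to Kif16b, an endosome motor, at 2.25 and 1.69 TPM. Kif13a exceeded Kif13b by 0.58 ± 0.21 on the log2 scale, and Kif1c had 3.88 and 3.98 TPM.

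The cilium and hedgehog class was low. Kif7, the hedgehog regulator of the primary cilium, had 1.54 and 2.17 TPM, and its paralogue Kif27 had 0.89 and 0.95 TPM. Kif24, which restrains cilium formation, had 2.47 and 3.49 TPM, and Kif9 had 2.27 and 2.18 TPM. These 3 genes, Kif7, Kif24 and Kif9, were the members of the class of 6 that reached 1 TPM in both libraries. Kif6, known from motile cilia of the ventricle lining, had 0.97 and 2.34 TPM on 56 and 68 expected counts, and Kif19a had 0.28 and 0.20 TPM. Kif12 and Kif28 had no read in either library. For Kif12, 3 counts would be 0.0916 and 0.119 TPM, though its deposited intervals reached higher, to 0.513 and 0.660 TPM. For Kif28, 3 counts would be 0.0391 and 0.0508 TPM. In all, 35 of the 43 members reached 1 TPM in both libraries, beside 12808 of 21474 protein-coding genes, and 24 members had a mean of 5 TPM or more.

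The level of a gene is a sum over its annotated transcript models, and long protein-coding models held less of that sum in some axonal genes than in the mitotic genes. For 22 of the 24 members with a mean of 5 TPM or more, 1 model held at least 50% of the gene's TPM in both libraries. Protein-coding models of at least 1000 nt held 90% or more of the TPM for 8 of 9 mitotic genes, with Kif4 at 88.0% ± 4.13. The same was true of 6 of 10 axonal genes. The exceptions were Kif1a, Kif3a, Kif1b and Kif21b.

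For Kif1a the leading model was Kif1a-206, an incomplete model of 528 nt, with 42.66% and 46.17% of the gene's TPM. The full-length model Kif1a-204 (8206 nt, 1697 codons) held 27.38% and 22.20% of the TPM, yet took 7331.57 and 6447.11 of the gene's 9755 and 10066 expected counts. A noncoding model of 570 nt, Kif1a-208, held 20.0% ± 2.47. From models of at least 1000 nt alone, Kif1a stood at 50.95 and 71.90 TPM, below the single model that carried Kif5c at 122.70 and 144.03 TPM. The lead of Kif1a over Kif5c was thus seen with all models and not with the long models.

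Kif3a showed a similar split. Its leading model Kif3a-203 (3161 nt, 701 codons) held 37.72% and 42.72%, and a model marked for nonsense-mediated decay, Kif3a-206 (770 nt), held 33.62% and 27.32%. The shares of its minor models moved between embryos, with Kif3a-205 at 16.44% and 3.80% and Kif3a-208 at 0 and 12.81%. Kif3a was also the sole axonal gene whose intervals overlapped between the embryos. Its models of at least 1000 nt summed to 78.63 and 106.35 TPM, below those of Kif5c and of Kif5b, at 94.52 and 111.43 TPM, in both libraries. That sum of Kif5b includes an incomplete model of 2006 nt. The full-length Kif5b model alone, at 40.01 and 48.72 TPM, lay below Kif3a-203, at 62.36 and 71.28 TPM. The order of Kif3a and Kif5b thus depends on which models are kept.

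Kif1b yields a short and a long motor by use of different tails. The long form, Kif1b-203 (10233 nt, 1816 codons), which corresponds to the synaptic vesicle carrier, held 59.57% and 55.22% of the TPM. The short form, Kif1b-201 (6991 nt, 1150 codons), which corresponds to the carrier of mitochondria, held 13.11% and 9.61%, and a model with a retained intron (587 nt) held 24.79% and 28.97%. The log2 ratio of Kif1b to Kif1a was -0.90 ± 0.03 in TPM, 0.35 in expected counts and 0.13 over models of at least 1000 nt, so the order of this pair depends on the measure. Likewise the ratio of Kif21a to Kif21b was -0.17 ± 0.11, and 0.10 over protein-coding models, where 12.8% ± 1.58 of the TPM of Kif21b lay in a model marked for nonsense-mediated decay.

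Kif5b was split between an incomplete model of 2006 nt, with 54.0% ± 0.0919, and the full-length model of 963 codons, with 41.1% ± 1.46. This full-length model had 40.01 and 48.72 TPM, against 38.40 and 56.50 TPM for Kif5a, so their order turned in replicate 2. Kif21a used 3 long models that encode 1567, 1573 and 1672 codons, with means of 57.2%, 22.6% and 17.8%, and the share of the first was 51.63% in replicate 1 and 62.78% in replicate 2. Kif2a was led by a model of 705 codons at 71.7% ± 1.02. In contrast, Kif11, Kif15, Kif20b, Kif22 and Kif23 among the mitotic genes and Kif3b, Kif3c and Kif5a among the axonal genes had 1 model each.

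**Figure D3:**
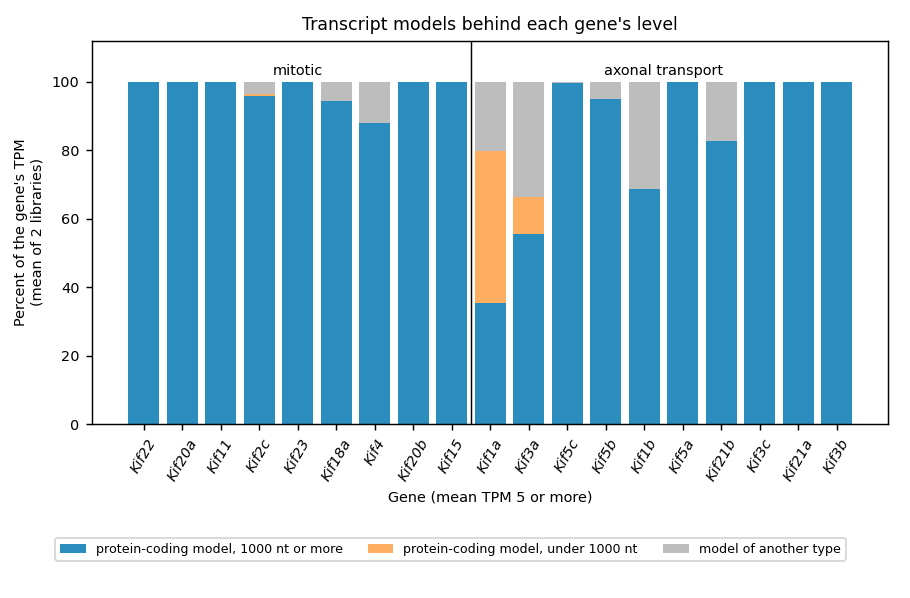
Percent of each gene's TPM (y axis, mean of 2 libraries) held by protein-coding models of at least 1000 nt (blue), shorter protein-coding models (orange) and models of another type (grey), for mitotic (left) and axonal (right) genes with a mean of 5 TPM or more. The blue part is 88.0% or more in each mitotic gene shown, and falls to 35.3% in Kif1a and 55.7% in Kif3a.

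Exons of 12 members overlap a gene on the other strand, and whether counting used the strand is not given in the sources used here. The longest overlap was 2617 nt, between Kif3c and the antisense gene 1110002L01Rik, which had a mean of 21.7 TPM. Among mitotic genes, Kif20a overlaps Cdc23 over 1271 nt and Kif4 overlaps Pdzd11 over 832 nt, and these neighbours had means of 119 and 125 TPM, above the kinesins themselves. The levels of Kif3c, Kif20a, Kif4, Kifc3 and Kif2a are therefore less certain than those of members without such an overlap.

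Genes that work with each class were read in the same way from lists chosen for their roles. Of 19 genes in the list of transport partners, 18 reached 1 TPM in both libraries. Their summed levels were 1931.65 TPM in replicate 1 and 2322.95 TPM in replicate 2. Besides partners and cargo adaptors of transport kinesins, the list held subunits of the opposing motor dynein and its cofactor dynactin. It also held Kif1bp, already counted among the kinesin genes. The highest were Fez1, an adaptor of conventional kinesin, with 511.42 and 576.90 TPM, and Klc1, a light chain of conventional kinesin, with 326.16 and 396.47 TPM. Rab3a, a synaptic vesicle protein carried by Kif1a and Kif1b, had 274.43 and 316.35 TPM. These partners were more abundant than any kinesin gene in both libraries.

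All 16 spindle partners reached 1 TPM in both libraries, with summed levels of 722.19 and 651.91 TPM. The list includes Cenpe, at 14.94 and 12.88 TPM, itself a mitotic kinesin that the symbol rule left out of the family. Birc5, of the chromosomal passenger complex that Kif20a transports, had 120.33 and 90.56 TPM. Prc1, the microtubule bundler to which Kif4 binds, had 77.02 and 65.89 TPM, and Racgap1, the partner of Kif23, had 65.35 and 62.81 TPM. Birc5, Prc1 and Racgap1 were the most abundant of the list, and each exceeded its motor in both libraries. The order does not extend to the whole list, since Incenp, of the same complex as Birc5, had 19.96 and 20.66 TPM, below Kif20a. The letters of the cell cycle homology region were in 12 of 15 promoter windows of the spindle partners and in 3 of 26 windows of the transport partners.

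Between the embryos no kinesin gene differed much. Of the 24 members with a mean of 5 TPM or more, 0 differed 2-fold with intervals apart, where 0.308% of 10381 protein-coding genes at that level did. At 1.5-fold 2 of 24 (8.33%) did, against 5.31% of all genes, so neither share says more of the family than of genes in general. These were Kif3c, at 34.52 and 52.14 TPM, and Kifc3, at 6.25 and 9.67 TPM, both higher in replicate 2 by 1.51 and 1.55 times. Below that level Kif6 had the widest ratio, 2.41 times higher in replicate 2, with intervals that overlapped. The protein-coding models of Kif6 alone had 0.50 and 0.54 TPM, so most of that difference lay in its other models.

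Smaller differences ran in opposite directions in the classes. Intervals lay apart with replicate 2 higher for 11 of the 24 members (45.8%), near the 38.9% of all genes at that level, so the family as a whole did not stand apart. Of these 11, 9 were axonal, all of the 10 axonal genes except Kif3a, and the others were Kifc2 and Kifc3. Of the 9 mitotic genes, 0 were higher in replicate 2 with intervals apart. Intervals lay apart with replicate 1 higher for 3 of 24 members (12.5%), against 8.25% of all genes, and all 3 were mitotic: Kif22, Kif20a and Kif4. Replicate 1 exceeded replicate 2 by 1.18 times for Kif22, 1.20 times for Kif20a and 1.22 times for Kif4. The difference of Kif4 was smaller over its protein-coding models, at 15.04 and 13.17 TPM.

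Most genes were slightly higher in replicate 2, with a median log2 ratio of 0.15 in TPM over the 13070 protein-coding genes with a mean of 1 TPM or more. The uncorrected median log2 ratio was -0.03 over the 14 mitotic genes and 0.26 over the 10 axonal genes. Relative to that median, all 12 mitotic genes at that level were lower in replicate 2, with a median of -0.21 and a range from -0.42 to -0.06. Of the 10 axonal genes, 9 were higher, with a median of 0.11 and a range from -0.14 for Kif3a to 0.43 for Kif3c. With expected counts scaled by the TMM method, all 12 mitotic genes were again lower, with a median of -0.23. Under that scaling 9 of 10 axonal genes were higher, with a median of 0.13. The gene that was lower was then Kif21a, by only -0.01, while Kif3a was at 0.07. Over models of at least 1000 nt Kif3a had 78.63 and 106.35 TPM, so its place below 0 depends on the short models. The 6 neuron-enriched axonal genes had a median of 0.24 in TPM and 0.21 with TMM. Kif5a, at 0.40 in TPM and 0.39 with TMM, and Kif3c, at 0.43 with both, moved most among axonal genes.

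**Figure D4:**
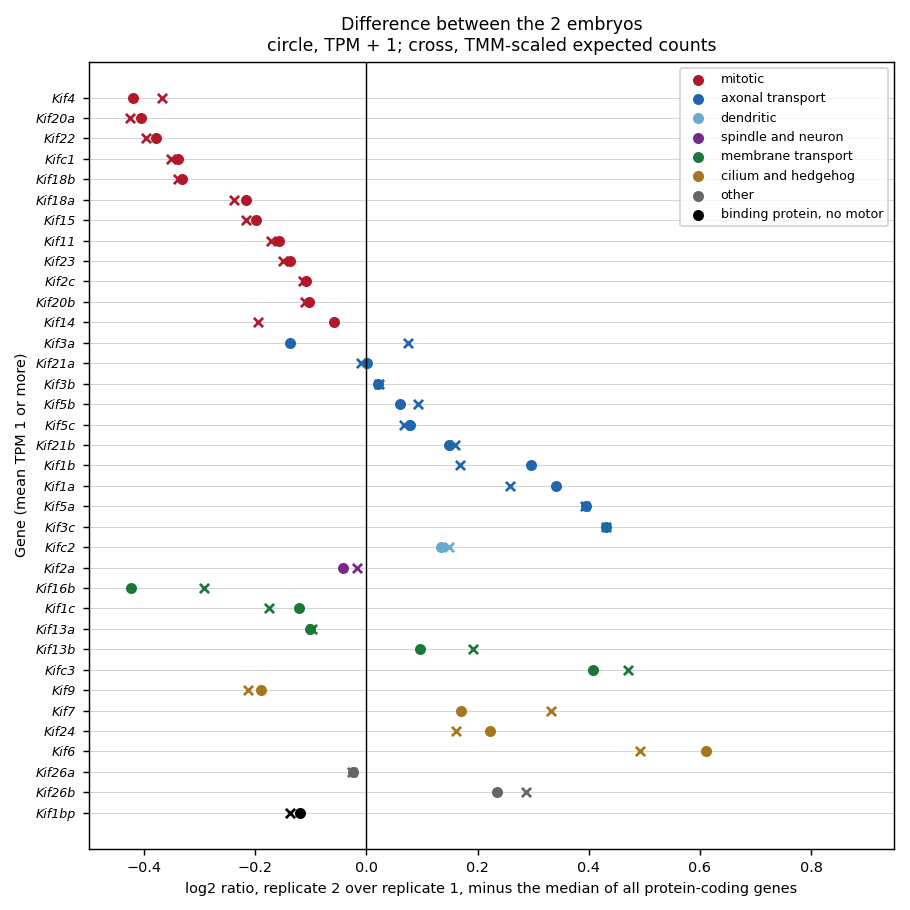
Log2 ratio of replicate 2 to replicate 1 for kinesin genes with a mean of 1 TPM or more, minus the median of all protein-coding genes (x axis), from TPM + 1 (circle) and from TMM-scaled expected counts (cross), coloured by class. All 12 mitotic genes lie left of 0, from -0.42 to -0.06 in TPM, and 9 of 10 axonal genes lie right of it. The exception is Kif3a in TPM and, at -0.01, Kif21a with TMM.

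Markers of cell types differed between the embryos as well. All 11 neuron markers were higher in replicate 2 with intervals apart, and together they stood at 3610 TPM in replicate 1 and at 4506 in replicate 2. Of the 9 proliferation markers, 8 were higher in replicate 1 with intervals apart, and their sum was 1143 and 958 TPM. Relative to all genes the median log2 ratio was 0.24 for neuron markers, -0.36 for proliferation markers and -0.23 for the spindle partners, of which 16 of 16 were lower. For the transport partners it was 0.10, with 16 of 18 higher.

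The sum of the 6 red blood cell markers was 11279 and 13964 TPM and that of the 5 meningeal markers 234 and 323 TPM, and their relative medians were 0.24 and 0.27. The 7 radial glia markers summed to 2104 TPM in each library, with a relative median of -0.31 and 5 of 7 lower. The sums were 197 and 200 TPM for 5 endothelial markers, 97.2 and 107 TPM for 5 microglia markers, and 795 and 808 TPM for 4 choroid plexus and ciliated cell markers. No marker was at 0 in either library. The part of these markers in the difference of the kinesin genes was not tested.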

How the data were processed

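Total RNA of 2 embryonic forebrains was measured by RNA sequencing. The files' notes name assembly mm10 and GENCODE release M4. Which aligner and quantifier were run, and whether strand was used, is not given in the sources used here. Extraction was with Ambion mirVana, spike-ins were used and a Smart-seq document was linked, per the labels' protocols. The authors deposited expected counts, which are estimated reads and need not be whole. Deposited beside these, per the file headers, were TPM, FPKM and the share of each transcript in its gene in percent. Interval limits of each TPM were deposited too and used as a score, since their level is not stated. They surround the posterior mean, so that a TPM can fall outside.

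GENCODE M21 supplied names, types and positions through identifiers stripped of their version, and this matched 42462 of 43346 Ensembl genes (98.0%). The 43 members, the classes, the partner and marker lists and the pairs were chosen with earlier results of these data known. Members were named one by one, and from each list at most the 5 most abundant genes. Kifap3, Cenpe, Incenp and the neighbours 1110002L01Rik, Cdc23 and Pdzd11 were named after their values were seen. No gene was matched for 1 symbol of the class table, and it was not analysed here.

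The libraries held 35310017 and 29250404 expected counts. Where no read was found, the limit given is 3 counts, or 0.131 and 0.170 TPM for 1 kb of effective length. Shares of counts carry 95% Wilson intervals. Log2 ratios of TPM between embryos, and their medians, used log2(TPM + 1). Folds between embryos, those of the fold rule included, and ratios within a library used TPM with no pseudocount. To differ between embryos, a gene needed a mean TPM of at least 5, a ratio of at least 2-fold and deposited intervals that lay apart. This fold rule was tested on simulated data with counting noise only. The simulation leaves out the wider spread between these libraries, so it does not give the rule's error rate here. TMM factors came from edgeR 4.0.16 in R 4.3.3 on expected counts, and the rest was computed with Python 3.11.15, pandas 2.3.3, numpy 2.4.6 and scipy 1.17.1. Promoter windows were searched on both strands. Alternatives were other values, pseudocounts, thresholds, scalings, transcript types, members and leaving out each replicate.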

Additional observations from a re-analysis of the deposited data

How the results depend on the processing

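Of 46 alternatives, 34 left a value within the spread between libraries or a count within 1.5 times, 12 moved it, and 0 turned its direction. The log2 ratio of summed mitotic to axonal levels moved from -1.76 to -2.26 with expected counts not divided by length, to -0.92 with the neuron-enriched axonal genes alone and to -1.36 with transcript models of at least 1000 nt, a setting chosen after seeing the data. The difference of medians moved from -2.39 to -1.89 with the neuron-enriched axonal genes alone, and to -1.98 both without Kifc1 and Kifc5b and with members of a mean TPM of 1 or more. The count of kinesin genes that differed between the embryos went from 0 to 2 at 1.5-fold. The median log2 ratio between embryos, before any centring, moved for mitotic genes from -0.03 to -0.21 with TMM scaling and to -0.23 with median-of-ratios scaling. For axonal genes it moved from 0.26 to 0.12 and 0.11 under the same scalings, and to 0.39 with the neuron-enriched genes alone. The scalings take out the shift of all genes, and the cause of the other moves beyond their own construction was not tested. Leaving out each replicate gave 35 to 37 detected members, -1.97 to -1.55 for the sum ratio, -2.65 to -2.13 for the difference of medians, 19 to 20 separated pairs and 22 to 22 genes with a leading transcript. Of the 19 pairs apart in both libraries, 18 kept their direction with counts, 18 with protein-coding transcripts and 18 with long transcript models. The exception was Kif1b and Kif1a with counts and with long models, and Kif21a and Kif21b with protein-coding transcripts. No paired analysis was possible because the design has 1 group. Depth limits the members near 0 TPM, and levels of genes with short transcript models depend on how reads were assigned.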
